A study of Mus musculus with 4 samples.

Results

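CXCL13-expressing CD8-negative T cells were examined among the human CD45+ cells sorted from MDA-MB-231 tumors grown in humanized mice. Members were selected on their own unique molecular identifier (UMI) counts: at least 3 UMIs summed over CD3D, CD3E, CD3G and TRAC, at least 2 UMIs of CXCL13, no UMI of FOXP3, CD8A or CD8B, and at most 4 UMIs summed over C1QA, C1QB and LYZ. The rule found 223 cells among 16327 cells kept, 4144 T cells and 1731 CD8-negative FOXP3-zero T cells. MDA-MB-231 is a human breast carcinoma line, injected here into the mammary fat pad. The hosts were MISTRG mice, which express human cytokines, were irradiated as pups and received human fetal liver CD34+ cells in the liver, so that every T cell described is human and matured in a mouse. All mice carried these tumors and human cell grafts. Those treated received Maraviroc at 300 mg/l in drinking water from day 21 for 10 days, and tumors were taken on day 31. The ages and the cell donor of each mouse are not given in the sources used here.

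CXCL13 is the chemokine that draws CXCR5-bearing B cells and follicular helper T cells into follicles. Human T cells make it in lymph nodes as follicular helper cells and, in inflamed tissue and tumors, as peripheral helper cells that often lack CXCR5, as well as in exhausted CD8 T cells. Helper cells act on B cells through CD40LG and IL21 and carry the inhibitory receptors PDCD1 and BTLA, while regulatory T cells, marked by FOXP3 and IL2RA, restrain responses.

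The mice were pooled into 2 capture reactions with a hashtag antibody for each mouse. Of the mice in reaction 1, 4 were untreated and 3 received Maraviroc. Of those in reaction 2, 3 were untreated and 4 received it. The reactions differed in depth and in how clearly hashtags were read, since reaction 1 kept 7361 of 29120 barcodes at a median of 5785 UMIs per cell and reaction 2 kept 8966 of 13582 at 10663.5. The libraries held 133089612 and 175447534 gene UMIs, respectively, and 32 kept barcodes occurred in both. Members numbered 63 in reaction 1, with a median of 4734 UMIs, and 160 in reaction 2, with a median of 9686. They were found in all 14 mice, at 2 to 59 cells each. Mice are named below by reaction, treatment and a number that only tells them apart.

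The members held the transcripts their label names as T cells, and less fully those of CD4 T cells. All 10 genes of a T cell marker list were detected, summing to 3054 counts per 1000000 UMIs (CPM) against 2139 CPM in the T cells of the same gate without a CXCL13 UMI (CXCL13-zero T cells), 4329 CPM in FOXP3-positive and 3079 CPM in CD8 T cells. CXCL13-zero T cells without a UMI of NCAM1, KLRF1, KLRC1 or TRDC, genes of natural killer (NK) and gamma-delta T cells, stood at 3797 CPM, above members. The 4 genes of the gate stand on that list, so the sum is a description. At least 1 CD4 UMI was seen in 59.6% of members (95% exact binomial interval 52.9 to 66.1, which covers counting error only, as all such intervals here). That share was 36.5% in reaction 1 and 68.8% in reaction 2. It was 68.2% in FOXP3-positive T cells, 27.4% in CXCL13-zero T cells, 49.8% in those without NK or gamma-delta UMIs, 14.6% in CD8 T cells and 4.72% in B cells, which do not use the gene and had a median of 6143 UMIs. A cell with no CD8 or CD4 UMI may still hold that transcript below detection.

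CXCL13 (ENSG00000156234) was abundant in most of these cells rather than close to the threshold. The median was 18 UMIs per member, 9 in reaction 1 and 29 in reaction 2, and the highest cell held 275. Exactly 2 UMIs were seen in 20 members (8.97%), 3 in 14, 4 to 10 in 46, 11 to 50 in 93 and over 50 in 50 (22.4%). Members made up 223 of the 16327 cells and held 8179 of the 16415 CXCL13 UMIs (49.8%). CD8 T cells, gated on at least 2 UMIs of CD8A and CD8B together, held another 18.8%, FOXP3-positive T cells 7.31% and cells outside the T cell gate 14.0%. Members were chosen on CXCL13, so their part of its UMIs is a description. In reaction 1 members held 27.5%, CD8 T cells 24.8%, FOXP3-positive T cells 14.7% and cells outside the T cell gate 19.1%. In reaction 2 these parts were 57.5%, 16.7%, 4.76% and 12.3%.

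The share of cells with at least 2 CXCL13 UMIs, the count that also defines members, was set beside that of cells that should lack the transcript. It was 12.9% of CD8-negative FOXP3-zero T cells (11.3 to 14.6) and 16.9% of CD8 T cells (14.6 to 19.4), against 2.72% of FOXP3-positive T cells. The reactions differed: these shares were 8.99%, 21.9% and 7.34% in reaction 1, and 15.5%, 14.3% and 1.17% in reaction 2. T cells that fell in none of these classes stood at 53 of 404 (13.1%). In macrophages and monocytes, which should lack it, 4 of 7644 cells reached 2 UMIs (0.0523%), at a median of 11012 UMIs, above the 7063 of the CD8-negative FOXP3-zero cells. Their share with any CXCL13 UMI was 2.22%.

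Cells just outside the rule were set beside those just inside it for 4 genes, pooled over cells and with no test. In reaction 2, GNG4, a G protein gamma subunit, stood at 232 CPM in the 10 members with exactly 2 CXCL13 UMIs and at 255 CPM in the 36 cells with 1. TNFSF4, which encodes OX40 ligand, stood at 77.4 and 31.2 CPM in the same cells. KLRC1, an inhibitory lectin receptor of NK and CD8 T cells, stood at 43.0 and 340.4 CPM, and the granule protein gene GNLY at 843 and 4669 CPM. Reaction 1 gave 173 and 31.8 CPM for TNFSF4 in 10 and 21 cells.

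The share of members varied widely between mice. Among CD8-negative FOXP3-zero T cells it was lowest in untreated mouse 3 of reaction 2, at 2 of 67 cells (2.99%), and highest in untreated mouse 1 of the same reaction, at 59 of 213 (27.7%, 21.8 to 34.2). In untreated mice the lowest share was 2.99%, the median 8.46% and the highest 27.7%. In Maraviroc-treated mice these were 4.76%, 11.2% and 20.9%. The range of the Maraviroc-treated mice lay within that of the untreated mice.

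**Figure D1:**
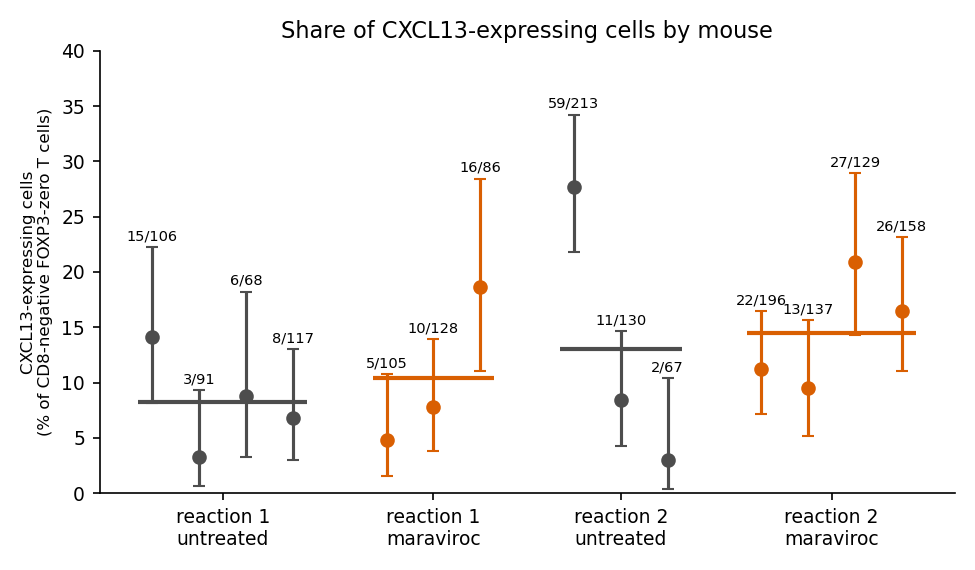
Members as a percent of CD8-negative FOXP3-zero T cells (vertical axis) in each of the 14 mice, by reaction and treatment, with exact 95% binomial intervals, group means as bars and cell counts above. Untreated mice run from 2.99% to 27.7% and Maraviroc-treated mice from 4.76% to 20.9%, with overlap in both reactions.

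Whether Maraviroc altered the frequency of these cells was tested across mice, with treatments permuted within each reaction. Untreated mice averaged 10.3% ± 8.54 (SD, n = 7), and the average with Maraviroc was 12.8% ± 6.0 (SD, n = 7). The difference averaged over the reactions was 1.80 percentage points and did not pass the test (exact permutation test over 1225 regroupings, two-sided p = 0.655). Within reaction 1 it was 2.12 points (exact permutation p = 0.6) and within reaction 2 it was 1.48 points (exact permutation p = 0.857). Without untreated mouse 1 of reaction 2, the mouse with 59 members, the difference was 5.46 points (exact permutation p = 0.110), and without Maraviroc-treated mouse 3 of reaction 1 or untreated mouse 3 of reaction 2 it turned to -0.257 and -0.720. As a percent of all cells kept, untreated mice held 1.29% ± 1.58 members (SD, n = 7), and with Maraviroc the share was 1.37% ± 0.675 (SD, n = 7).

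Which genes accompany CXCL13 within this T cell class was asked by setting members against CXCL13-zero T cells of the same mouse, over the 9 mice with at least 10 members (3 untreated and 6 Maraviroc-treated). UMIs were summed for each mouse and cell kind, and edgeR's quasi-likelihood test was fitted with the mouse as a block. Cells were chosen on CXCL13, so CXCL13 and the other genes of the rule are left out, and the part played by anything else that goes with CXCL13 detection was not tested. Of 9670 genes, 1590 passed an adjusted p of 0.05 (16.4%), 690 higher in members (7.14%) and 900 lower (9.31%), and the median log2 fold change of all genes was -0.02. With each cell thinned to 2000 UMIs, 430 of 4187 genes passed. The classes were set anew there: cells that kept at least 1 CXCL13 UMI counted as members and all others as CXCL13-zero. Cells with under 2000 UMIs were left out.

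Genes of follicular and peripheral helper T cells were more often higher than lower in members. Of 20 tested, 13 were higher and none lower, with a median log2 fold change of 0.86 beside -0.02 over all genes. Among cells of both kinds with a CD4 UMI, where 5 mice remained and 10.5% of genes were called, the count was 6 higher and 1 lower, with a median of 0.38. Among cells without NK or gamma-delta UMIs, with 8 mice and 23.4% of genes called, it was 7 and 2, and PDCD1, BTLA and MAF did not pass. The 13 included the neuropeptide gene NMB, the immunoglobulin superfamily ligand CD200, the transcription factors TOX2, MAF and BATF, the signalling adaptor SH2D1A, the receptors PDCD1 and BTLA, and the B cell helper cytokine IL21. NMB ranged from 0 to 415 CPM in members, with a median of 185, and from 1.40 to 68.1 CPM, with a median of 5.92, in CXCL13-zero T cells. It was higher in members in 8 of 9 mice, with a log2 fold change of 3.66 (SE 0.35, edgeR adjusted p = 1.6e-08). CD200 ran at 24.5, 92.9 and 156 CPM (lowest, median and highest) against 1.26, 9.86 and 18.2, and the groups did not overlap (log2 fold change 3.14, SE 0.29).

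Other genes of that list differed less or did not pass. TOX2 was higher in 9 of 9 mice, with a median of 171 against 51 CPM and a log2 fold change of 1.87 (SE 0.19). IL21 was sparse, at 0 to 93.1 CPM in members with a median of 15.2, against 0 to 25.4 with a median of 5.44 (log2 fold change 1.76, SE 0.45, edgeR adjusted p = 0.0071). BCL6, the master factor of follicular helper cells, had a log2 fold change of 0.02 (SE 0.22) and did not pass. ICOS, CD40LG and TIGIT also did not pass, at 0.30, 0.44 and 0.46. CXCR5, the receptor for CXCL13, was too sparse to be tested, with a median of 0 CPM in members and 1.17 CPM in CXCL13-zero T cells.

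The genes with the largest differences were mostly outside the lists. IGFL2, an insulin growth factor-like secreted protein, ran at 0, 126 and 255 CPM (lowest, median and highest) in members and at 0, 1.82 and 14.5 in CXCL13-zero T cells, with a log2 fold change of 4.83 (SE 0.39, edgeR adjusted p = 2.4e-09). It was higher in 8 of 9 mice, and in the other, Maraviroc-treated mouse 2 of reaction 1, it was at 0 in both kinds. TP63, a p53 family transcription factor, LHFPL6, the cytoskeletal adaptor PDLIM4, the integrin chain ITGB8, which helps to activate TGF-beta, the kinase CDK14, CAVIN3, COL6A3 and the carboxypeptidase M gene completed the list of 12 named by rule beside IGFL2, NMB, TNFSF4 and CD200. Their log2 fold changes lay between 3.07 and 3.74. The earlier chosen markers of these cells, given as a description, stood at medians of 106 against 11.4 CPM for TNFSF4, 611 against 85.2 for GNG4 and 37.2 against 5.92 for LRRN3, a leucine-rich repeat membrane protein.

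**Figure D2:**
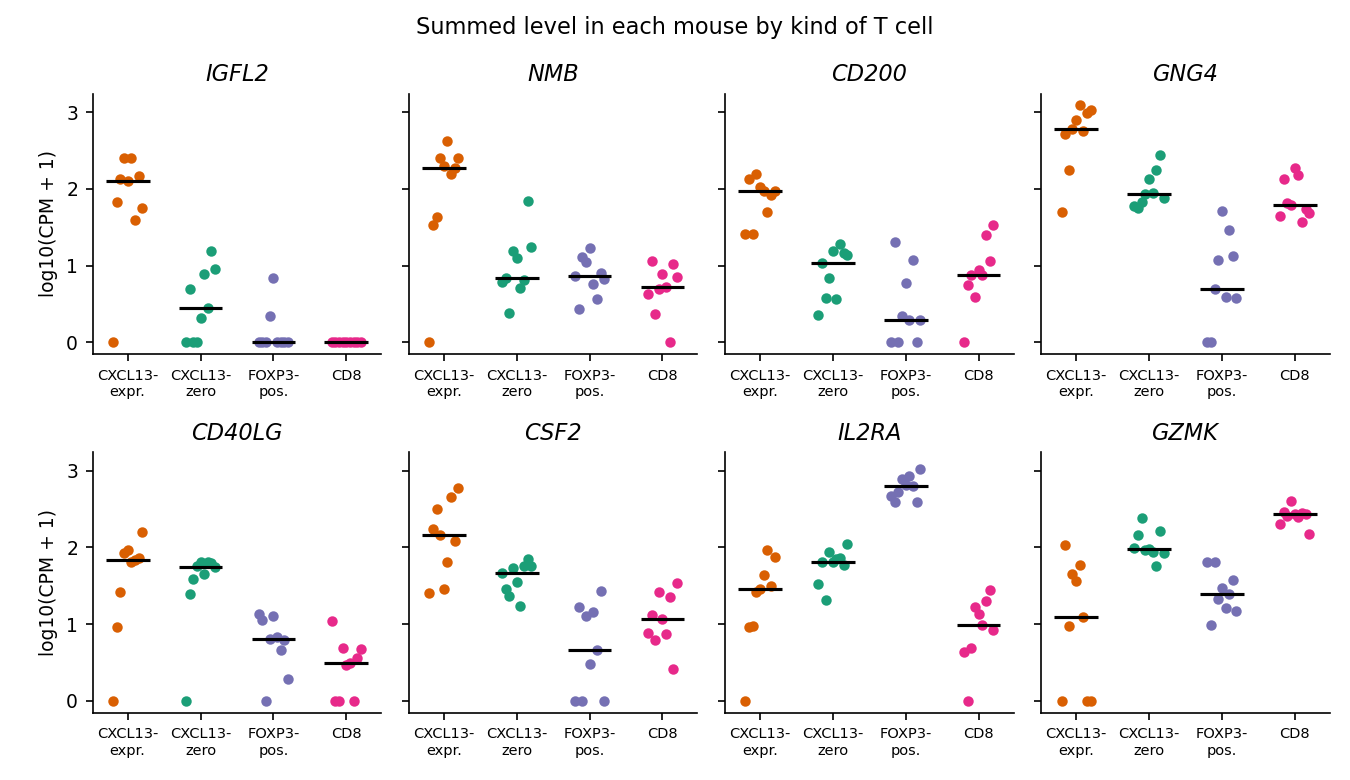
Level of 8 genes as log10(CPM + 1) on the vertical axis in members, CXCL13-zero, FOXP3-positive and CD8 T cells of the 9 mice with at least 10 members, 1 point per mouse and a black line at the median. CD200 is higher in members than in CXCL13-zero T cells without overlap, IGFL2 is at most 14.5 CPM in the other kinds, and IL2RA is at 387 to 1057 CPM in FOXP3-positive T cells and below that in the other kinds.

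Cytokines and cytotoxic genes of the type 1 program moved apart. Of 20 tested, 2 were higher in members, 15 lower, and the median log2 fold change was -1.37. The 2 higher genes were secreted cytokines: CSF2, which encodes GM-CSF, had medians of 145 against 45.5 CPM and a log2 fold change of 2.10 (SE 0.29), and IFNG had medians of 172 against 92.9 CPM and a log2 fold change of 1.16 (SE 0.25, edgeR adjusted p = 0.0013). The 15 lower genes were led by GNLY, which ran at 66.0, 330.3 and 1668 CPM in members and at 3172, 5559 and 12811 CPM in CXCL13-zero T cells (log2 fold change -3.84, SE 0.23), without overlap. The pore-forming protein PRF1, the granzyme gene GZMB and NKG7 were lower in 9 of 9 mice, by -2.15, -2.68 and -2.52.

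The 8 genes with the lowest fold changes were ITGAD, NCAM1, STYK1, KLRC2, TXK, PLCG2, KLRC3 and NCR1, most of them known from NK cells, at log2 fold changes from -6.06 to -4.48. A list of 7 NK cell markers summed to 1356 CPM in CXCL13-zero T cells, led by KLRC1 at 488 CPM with all 7 detected, and to 106 CPM in members, with KLRF1 at 0. A gamma-delta T cell list summed to 521 and 103 CPM, respectively. Macrophage and monocyte markers summed to 884 and 568 CPM, led by FCER1G and by SPP1. In reaction 2 they were lower in members, at 348 against 618 CPM. In reaction 1 they stood at 1417 against 1272 CPM, ranging over its 7 mice from 429 to 4137 CPM in members and from 887 to 1700 CPM in CXCL13-zero T cells, and were higher in members in 4 of 7 mice. B cell markers summed to 66.6 and 30.8 CPM. The comparison was therefore repeated, after these values were seen, on the cells of both kinds without a UMI of NCAM1, KLRF1, KLRC1 or TRDC, which left 675 CXCL13-zero cells. These had a median of 5616 UMIs, against 6849 in all CXCL13-zero T cells and 9001 in all members. The part of this depth in the values of the repeat was not tested.

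Without those cells, over the 8 mice that still had at least 10 members, 1475 of 6313 genes passed, 724 higher and 751 lower. Of 1306 genes called before and tested again, 905 were called in the same direction and 14 in the opposite one. The 12 genes named as highest all passed again. They were named for their calls in the first fit, and the repeat used a subset of the same cells. Passing again is therefore no independent test of them. Of the 12, TNFSF4 was chosen as a marker of these cells with these data known and counts as a description. IGFL2 kept a log2 fold change of 3.94, NMB 3.33 and CD200 2.48. CSF2 stood at 3.13 and IFNG at 2.23. Of 17 type 1 genes, 4 were then higher and 2 lower, with a median of -0.16: GNLY did not pass at -0.62, PRF1 stood at 0.08, and the chemokine genes XCL1 and CCL3 turned from -1.41 and -0.82 to 2.14 and 1.28. Among cells of both kinds with a CD4 UMI, type 1 genes gave 2 higher and 5 lower of 14, with a median of -0.59.

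The helper list was smaller in the repeat without NK or gamma-delta UMIs, with 7 of 20 higher, 2 lower and a median of 0.41. TOX2, SH2D1A, IL21, TOX, NMB and CD200 passed again, PDCD1, BTLA, MAF and TNFSF8 did not (0.70, 0.71, 0.11 and 0.43), and ICOS was lower at -0.55. CD4, higher by 0.88 in all cells, was at 0.03. Cell division genes also changed their count, from 1 higher and 1 lower of 12 to 7 higher and none lower with a median of 1.12, and MKI67 turned from -0.85 to 0.96. Among cells of both kinds with a CD4 UMI, cell division genes gave 1 higher and 0 lower of 12, with a median of 0.54.

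**Figure D3:**
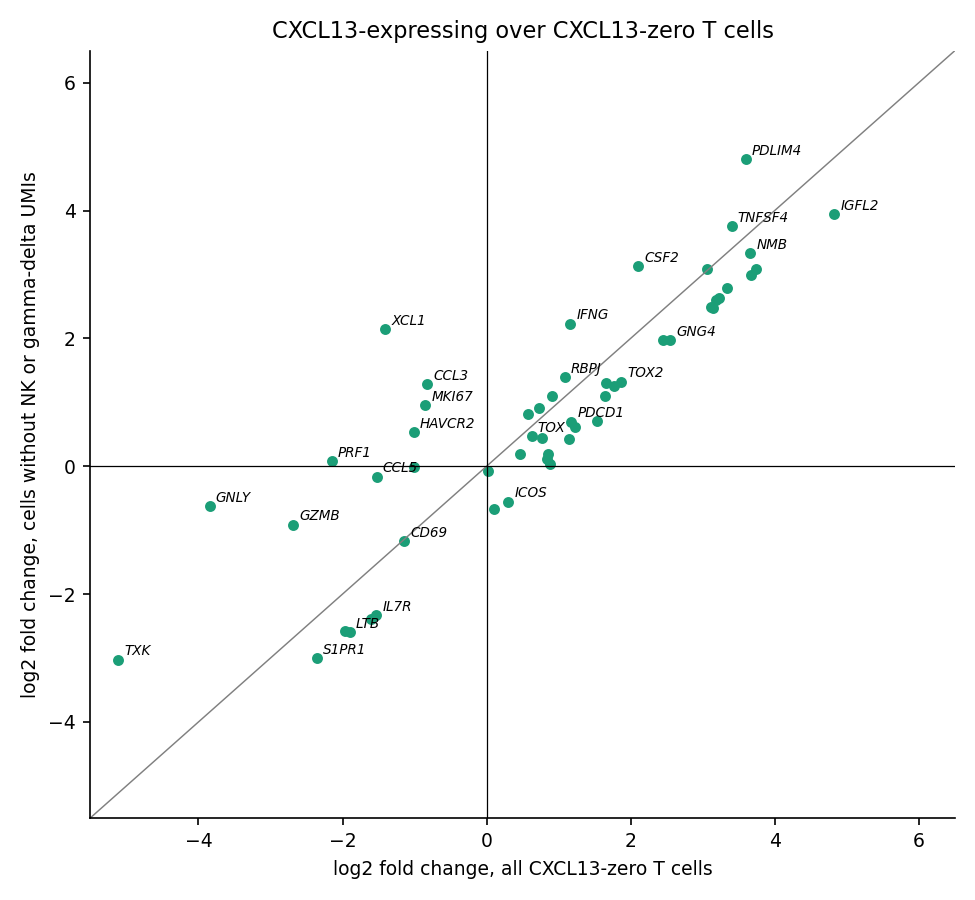
Log2 fold change of members against CXCL13-zero T cells in all cells (horizontal axis) and in cells without NK or gamma-delta UMIs (vertical axis) for named genes, with a grey line where both are equal. IGFL2, NMB and CD200 lie near the line, while XCL1 moves from -1.41 to 2.14 and GNLY from -3.84 to -0.62.

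Some genes of recirculating and resting T cells were lower in members. In all cells 5 of 14 were lower, 1 higher and 8 did not pass, with a median of -0.40, and without NK or gamma-delta UMIs 8 were lower and 1 higher, with a median of -0.72. KLF2, the factor that keeps T cells circulating, had medians of 36.4 against 143 CPM and was lower in 9 of 9 mice (log2 fold change -1.96, SE 0.22, edgeR adjusted p = 2.2e-07). Its target S1PR1, the receptor for tissue exit, was at -2.35 (SE 0.54), the cytokine receptor IL7R at -1.53 (SE 0.23) and the oxysterol receptor GPR183 was also lower. The gene higher was CCR7, a lymph node homing receptor, at 1.23 (SE 0.24), which did not pass without NK or gamma-delta UMIs.

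Costimulatory genes of the TNF family split by member. Of 17 tested, 6 were higher and 3 lower, with a median of 0.30. The 6 include TNFSF4, a marker chosen on these data, whose value is a description. The ligands CD70 and TNFSF8 (CD30 ligand) and the receptors TNFRSF4 (OX40), TNFRSF9 (4-1BB) and TNFRSF18 (GITR) were higher, and LTB, which forms lymphotoxin with LTA, was lower without overlap, at medians of 251 against 1099 CPM (log2 fold change -1.90, SE 0.16). Without NK or gamma-delta UMIs 4 of 16 were higher and 5 lower, with a median of -0.14. CD70 and TNFRSF18 then passed again at 1.10 and 0.82 and LTB at -2.60, whereas TNFRSF4 and TNFSF8 did not pass, at 0.19 and 0.43. Checkpoint receptors gave 4 higher and 3 lower of 12, with a median of -0.003. LAG3 was higher at 0.73 (SE 0.23), and HAVCR2 (TIM-3) was lower at -1.01 (SE 0.16) but stood at 0.54 in cells without NK or gamma-delta UMIs. In those cells checkpoint receptors gave 3 higher and 2 lower of 10, with a median of 0.62.

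The chemokine genes CCL3, CCL4 and CCL5 were lower in members than in CXCL13-zero T cells, at log2 fold changes between -1.53 for CCL5 and -0.82 for CCL3. Without NK or gamma-delta UMIs the CCL3 value turned to 1.28 and the calls of CCL4 and CCL5 were lost. Of the other lists, T cell receptor signalling and exhaustion genes gave 6 higher and 5 lower of 20, and 7 and 0 of 17 without NK or gamma-delta UMIs, with medians of 0.11 and 0.42. Interferon-stimulated genes gave 0 higher and 5 lower of 14 in both forms. Tissue residence genes gave 1 and 5 of 12, then 2 and 4 of 11, and type 2 and type 17 genes 3 and 0 of 9, then 2 and 1 of 8. TGF-beta response genes gave 0 and 3 of 11, then 1 and 2 of 9, and regulatory genes 3 and 4 of 11, then 3 and 5 of 10. Heat shock and dissociation genes gave 4 and 2 of 12, then 3 and 1 of 11, and MHC class II and activation genes 1 and 2 of 8, then 0 and 1.

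Set against FOXP3-positive T cells, members were lower in most tested regulatory genes beyond FOXP3 and higher in most tested genes of the type 1 list. The same fit over 9 mice called 1993 of 6979 genes (28.6%), 961 higher (13.8%) and 1032 lower (14.8%), with a median of 0.01 over all genes. Of 12 regulatory genes other than FOXP3, 11 were lower and none higher, with a median of -1.61. IL2RA, the high-affinity IL-2 receptor chain, ran at 0, 28.0 and 91.1 CPM in members and at 387, 634 and 1057 CPM in FOXP3-positive cells, without overlap (log2 fold change -4.04, SE 0.22, edgeR adjusted p = 9.4e-11). The decoy receptor IL1R2, the factor IKZF2 (Helios) and CTLA4 were lower without overlap at -6.17, -2.41 and -1.97.

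Helper genes gave 12 higher and 6 lower of 20 in that comparison, with a median of 1.01. CD40LG, the ligand that licenses B cells, had medians of 68.3 against 5.38 CPM (log2 fold change 3.60, SE 0.45), and NMB, CD200, TNFSF8, BTLA and IL21 were also higher. ICOS, at 342 against 898 CPM, and TIGIT and MAF were lower. Of 17 type 1 genes, 10 were higher and 1 lower, with a median of 1.11, among them IFNG at medians of 172 against 6.97 CPM, without overlap (log2 fold change 4.04, SE 0.44). Type 2 and type 17 genes gave 2 higher and 3 lower of 10, with a median of -0.11. Naive and memory genes were higher in 7 and lower in 3 of 12, with TCF7 at 2.68 and CCR7 at 3.32.

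Markers of other cell types were set beside these values too. Gamma-delta markers summed to 103 CPM in members and 29.5 CPM in FOXP3-positive cells, and NK markers to 106 and 108 CPM. Macrophage and monocyte markers summed to 568 and 432 CPM, and to 1417 and 671 CPM in reaction 1. The part of the macrophage markers in the differences was not tested. In cells of both kinds without a UMI of NCAM1, KLRF1, KLRC1 or TRDC, a repeat added after these values were seen, 2088 of 7957 genes passed over 8 mice (26.2%). Type 1 genes then gave 11 higher and 1 lower of 18, regulatory genes 0 and 12 of 13, and helper genes 12 and 6 of 20, and IFNG stood at 4.28.

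The genes named by rule as highest over FOXP3-positive cells were IGFL2, LHFPL6, the chemokine CCL1, GNG4, PDLIM4, the long non-coding RNA DRAIC, ATP9A, TNFSF4, NMB, the oxygen sensor EGLN3, TSPAN2 and CD200, between 4.48 and 6.81, of which GNG4 and TNFSF4 are the markers given as a description. CCL1 ran at 0, 70.8 and 195 CPM in members and at 0, 0 and 2.80 in FOXP3-positive cells. The 8 lowest were IL1R2, CACNB2, TNFRSF11A (RANK), ARG2, IL10, TMTC1, IL1R1 and DLGAP1, between -6.17 and -4.70. Interferon-stimulated genes gave 0 higher and 8 lower of 14, TNF family genes 4 and 9 of 16, checkpoint receptors 4 and 4 of 11, and T cell receptor genes 10 and 1 of 18.

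**Figure D4:**
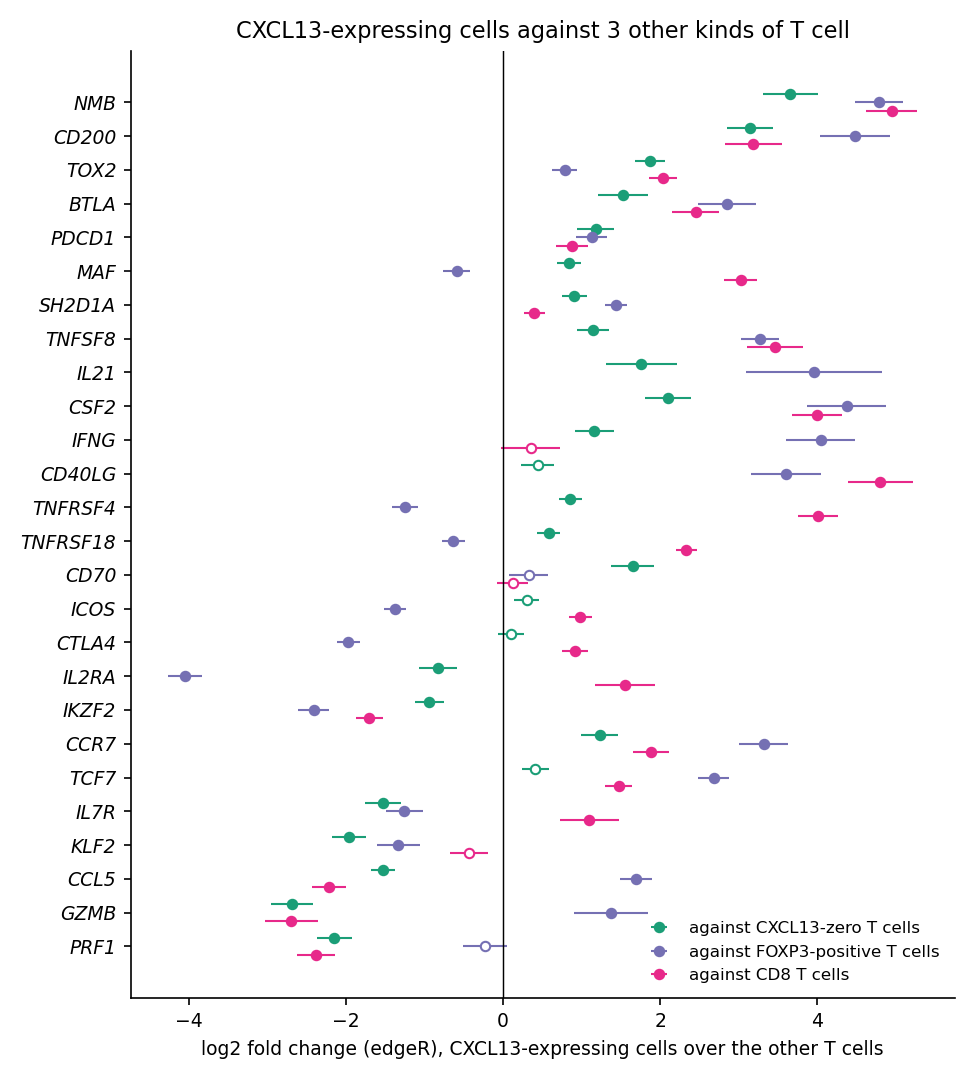
Log2 fold change of members (horizontal axis, with SE bars) against CXCL13-zero, FOXP3-positive and CD8 T cells for named genes, filled where edgeR's adjusted p was under 0.05. NMB and CD200 are higher in all 3 comparisons, whereas IFNG is higher against FOXP3-positive cells at 4.04 and does not pass against CD8 T cells at 0.35.

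Set against CD8 T cells, members were higher in most tested helper genes and in the OX40 gene TNFRSF4, and lower in most tested type 1 genes. The fit called 1416 of 8005 genes (17.7%), 752 higher (9.39%) and 664 lower (8.29%), with a median of -0.02. Of 20 helper genes, 14 were higher and none lower, with a median of 0.93. TNFRSF4 ran at 126, 242 and 444 CPM against 7.40, 18.1 and 29.1 CPM, without overlap (log2 fold change 4.01, SE 0.26, edgeR adjusted p = 1.1e-09), and CD40LG, MAF and CD4 were higher at 4.80, 3.03 and 3.01. IGFL2 and IL21 had no UMI in CD8 T cells of the 9 mice, so that members stood at least 362-fold and at least 98.4-fold higher, computed against a floor of 3 counts over all 9 mice. Of 79 IL21 UMIs in members 49 lay in untreated mouse 1 of reaction 2, and without that mouse the bounds were 269-fold for IGFL2 and 40.6-fold for IL21.

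Type 1 genes gave 1 higher and 14 lower of 19, with a median of -1.75, and type 2 and type 17 genes 7 higher and 0 lower of 8, with a median of 1.75. The type 1 gene that was higher was CSF2, at 145 against 10.7 CPM and higher in 9 of 9 mice (log2 fold change 4.0, SE 0.31). IFNG did not pass, at 172 against 156 CPM (log2 fold change 0.35, SE 0.37). The granzyme gene GZMK ran at 0, 11.4 and 107 CPM against 151, 268 and 403 CPM, without overlap (log2 fold change -3.30, SE 0.37). The type 2 cytokine gene IL13 and the receptor gene CCR4 were higher at 3.30 and 2.70, though IL13 reached a median of only 7.59 CPM and its highest mouse 368 CPM.

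NK cell markers were also higher in CD8 T cells than in members, at 705 against 106 CPM and led by KLRC1 at 389 CPM with all 7 detected, and gamma-delta markers stood at 345 against 103 CPM. Macrophage and monocyte markers stood at 466 CPM in CD8 T cells and 568 CPM in members. These were 604 and 1417 CPM in reaction 1, and 395 and 348 CPM in reaction 2. The part of the macrophage markers in the differences from CD8 T cells was not tested. The comparison was repeated, after these values were seen, on cells of both kinds without a UMI of NCAM1, KLRF1, KLRC1 or TRDC, over 8 mice. It called 1328 of 6433 genes, 715 higher and 613 lower, and of 1292 genes called before and tested again 989 were called in the same direction and 0 in the opposite one. Type 1 genes gave 1 higher and 13 lower of 18, with a median of -2.15. GNLY, PRF1 and GZMB stood at -2.61, -2.42 and -2.90 and passed, and CSF2 stood at 4.47. Helper genes gave 14 higher and 0 lower of 20 again, with a median of 1.15. Type 2 and type 17 genes gave 5 higher and 0 lower of 6, with a median of 0.94.

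The genes named by rule as highest over CD8 T cells were IGFL2, TSHZ2, ITGB8, NMB, CD40LG, PTPRB, TNFRSF4, the coagulation factor F5, CSF2, ARHGAP24, TP63 and PTPN14, and the lowest were KLRC2, PLCG2, KLRC1, TXK, KLRC3, GZMH, GZMK and NCAM1. CCL5 was lower, at medians of 441 against 2474 CPM (log2 fold change -2.21, SE 0.21). Cell division genes gave 0 higher and 4 lower of 12, and 0 and 0 without NK or gamma-delta UMIs. Naive and memory genes gave 6 and 0 of 12, and 3 and 2 of 11 in that repeat. Tissue residence genes gave 1 and 5 of 12, and checkpoint receptors 4 and 5 of 12.

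CXCL13-carrying CD8 T cells shared part of this pattern by description. The 165 CD8 T cells with at least 2 CXCL13 UMIs were selected on the same transcript and their values, pooled over mice, carry no test. In reaction 2 TNFSF4 stood at 74.9 CPM in 93 of these cells and 22.8 CPM in the 517 CD8 T cells with none, GNG4 at 213 and 40.5, and TOX2 at 86.5 and 36.0. Reaction 1 gave 98.2 and 20 CPM for TNFSF4. IGFL2 and IL21 had no UMI in either set in either reaction, NMB stood at 13.3 and 4.74 CPM and CD40LG at 3.33 and 3.32 CPM in reaction 2.

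Members with and without a CD4 UMI were also set side by side. In reaction 2, 110 members had one and 50 had none. GNG4 stood at 914 and 793 CPM, CD40LG at 75.7 and 82.4 CPM and NMB at 268 and 140 CPM. KLRC1 stood at 4.83 and 35.0 CPM and GNLY at 236 and 661 CPM. In reaction 1 CD40LG stood at 42.9 and 29.3 CPM in 23 members with and 40 without a CD4 UMI. CD40LG was thus detected in members of both kinds in both reactions.

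Maraviroc-treated mouse 2 of reaction 1 stood apart from the other 8 mice of these comparisons. Its 10 members had 981 CPM of NK markers and 3508 CPM of macrophage and monocyte markers, where the other 8 mice had 38.6 to 289 and 244 to 1219 CPM, and IGFL2, NMB and CD40LG were at 0 there. The part of these markers in its values was not tested. Without it 1588 genes passed against CXCL13-zero T cells, 2160 against FOXP3-positive T cells and 1498 against CD8 T cells.

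The effect of Maraviroc within members was tested on the same 9 mice with reaction as a term. The 3 untreated mice were mouse 1 of reaction 1 and mice 1 and 2 of reaction 2. No gene of 4027 passed edgeR's adjusted p of 0.05 (0% called), 83 had an unadjusted p under 0.05 (36 higher and 47 lower), and the lowest adjusted p was 0.405. DESeq2 called 1 gene, IFNG.

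IFNG (ENSG00000111537), the signature type 1 cytokine, had the lowest p. It stood at 272, 652 and 723 CPM in the untreated mice and at 33.0, 42.0, 98.2, 125, 172 and 209 CPM in the Maraviroc-treated mice, so that the groups did not overlap among these 9. Its log2 fold change was -2.18 (SE 0.42, edgeR adjusted p = 0.405, DESeq2 adjusted p = 0.014). The 5 mice left out for holding under 10 members did overlap: the 4 untreated mice stood at 0, 27.7, 60.1 and 188 CPM in 2 to 8 members each, and the treated mouse at 209 CPM. With a minimum of 5 cells per sum, added after these values were seen, the log2 fold change was -1.77 (edgeR adjusted p = 1.0). In untreated mouse 2 of reaction 2, all 70 IFNG UMIs lay in 3 of 11 members. Without untreated mouse 1 of reaction 2 the log2 fold change was -2.70 (edgeR adjusted p = 0.048).

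The other genes of lowest p also failed the adjustment. ANXA2, a calcium-dependent membrane-binding protein, stood at 401, 530 and 549 CPM in untreated and at 231 to 329 CPM in Maraviroc-treated mice (log2 fold change -0.82, SE 0.22). The mice left out overlapped, with 662 CPM of ANXA2 in the treated mouse and 236 to 563 CPM in the untreated mice. The linker histone gene HIST1H1E was at -0.89 (SE 0.23), with treated and untreated mice overlapping at 70.0 to 182 and 149 to 353 CPM. IKZF2 was at 1.35 (SE 0.36), with 55.8, 101 and 191 CPM against 147 to 522 CPM. The 4 untreated mice left out stood at 118, 482, 511 and 830 CPM of IKZF2, overlapping the treated mice, and with at least 5 cells per sum the log2 fold change was 0.37. TRDC, the delta chain constant gene, stood at 0, 0 and 1.61 CPM against 0 to 196 CPM, and its UMIs lay in 1 or 2 members of each of these mice where it was seen. Untreated mouse 3 of reaction 1, left out with 6 members, held 291 CPM of TRDC. These 4 genes had an edgeR adjusted p of 1.0.

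CXCL13 within members, on which they were chosen, is given with no test. It stood at 1657, 2438 and 4564 CPM in untreated mice and at 1398, 1512, 4200, 4392, 4654 and 4993 CPM in Maraviroc-treated mice, and the groups overlapped. GNG4 and TNFSF4 did not pass, at -0.04 (SE 0.37) and 0.04 (SE 0.55). IL21 was at 16.8, 78.8 and 93.1 CPM against 0 to 39.3 CPM (log2 fold change -2.17, SE 0.71, edgeR adjusted p = 1.0), and none of the 4 untreated mice left out had an IL21 UMI in members. None of the 18 helper genes tested passed, with a median of -0.12 beside -0.001 over all genes, and none of 12 type 1 genes did, with a median of -0.24.

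**Figure D5:**
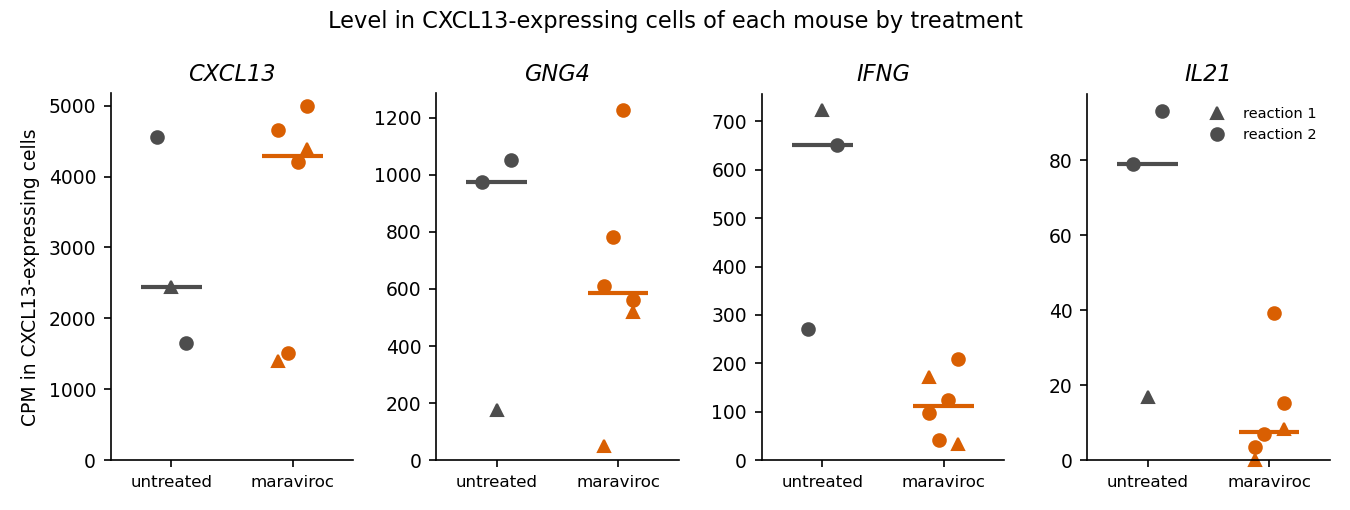
Levels of CXCL13, GNG4, IFNG and IL21 in members (CPM, vertical axis) of untreated and Maraviroc-treated mice, with triangles for reaction 1, circles for reaction 2 and a line at the median of each group of 3 and 6 mice. IFNG lies at 272 to 723 CPM in untreated and 33.0 to 209 CPM in treated mice, and CXCL13 overlaps between the groups.

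Over all CD8-negative FOXP3-zero T cells, with no CXCL13 threshold, all 14 mice could be used. No gene of 9127 passed edgeR's test (0% called), 347 had an unadjusted p under 0.05, and DESeq2 called 0. CXCL13 stood at 34.9, 182 and 1541 CPM (lowest, median and highest) in 7 untreated mice and at 58.5, 841 and 1126 CPM in 7 Maraviroc-treated mice, overlapping broadly (log2 fold change 0.57, SE 0.70). IFNG was at -0.28 (SE 0.33). The 5 genes of lowest p were SHCBP1 and FAM111B, at -0.75 and -0.82, and RHBDD1, the mitochondrial import gene TIMM23 and BAZ2B, at 0.46, 0.37 and 0.46, each with an edgeR adjusted p of 1.0.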

How the data were processed

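Human CD45+ cells were enriched on a Lymphoprep gradient, sorted and captured with 10x Chromium 3' v3.1 chemistry. The authors deposited, for each of 2 reactions, a matrix of UMI counts per human gene and hashtag, made with Cell Ranger 9.0.1 on GRCh38 per the submitters' processing notes, which also name Seurat 5.1.0. GEO's labels name the mouse as organism, while the counts are of human genes. No cell annotation was used. Barcodes with 601 to 6000 genes, a mitochondrial share under 12.5% and a top hashtag with at least 60% of hashtag UMIs were kept, and the treatment was read from the hashtag's name. No doublet caller was run, and barcodes with mixed hashtags fell to the hashtag rule. Cells are not replicates, so raw counts were summed per mouse, with a minimum of 10 cells per sum, and tested with edgeR 4.0.16 in R 4.3.3 (TMM, filterByExpr, quasi-likelihood test, Benjamini-Hochberg adjustment over all genes tested). P-values measure the spread between mice. SE is the absolute log2 fold change divided by the square root of edgeR's F statistic. It is therefore no measure of spread separate from the p-value. DESeq2 1.42.0 was an alternative. Shares were compared by exact permutation in Python 3.11.15 with numpy 2.4.6, over mice with at least 20 cells. The exact binomial intervals came from scipy 1.17.1. CPM are counts per 1000000 gene UMIs of a sum.

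Named genes were those of fixed lists and, per comparison of cell kinds, the 12 highest and 8 lowest log2 fold changes past the threshold with a mean of at least 20 CPM and 1 direction in at least 80% of mice, or, for treatment, the 5 of lowest p. Members and lists were chosen with earlier results of these data known. A gene of these lists is not reported here.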

Additional observations from a re-analysis of the deposited data

Results flagged for a closer look

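In untreated mouse 1 of reaction 2 members were 4.69% of all cells kept, and the next untreated mouse stood at 1.77% (n = 7), a gap large for its group by Dixon's criterion. CSF2 in members of Maraviroc-treated mouse 4 of reaction 2 stood at 459 CPM, and the next treated mouse at 173 CPM (n = 6). Of 16 groups tested in this way chance flags about 1 in 20. Cells with the transcripts of members also occurred outside the data compared. Among barcodes without a clear hashtag, 164 of 1226 CD8-negative FOXP3-zero T cells in reaction 1 (13.4%) and 15 of 159 in reaction 2 (9.43%) passed the same UMI thresholds and were given to no mouse under the hashtag rule used here. In reaction 1 they outnumbered the 63 members kept, so that another way of assigning hashtags could change which mice hold at least 10 members, and a looser rule was not tested. At least 2 CXCL13 UMIs were found in 104 kept cells outside the T cell gate and in 53 T cells that fell in none of the classes compared.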

How the results depend on the processing

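The difference in member share by treatment stayed between 0.370 and 2.74 points under the other gates and filters and was -0.0459 as a share of all cells kept. Leaving out each mouse in turn gave -0.720 to 5.46 points, and -0.257 without Maraviroc-treated mouse 3 of reaction 1, and no setting passed the test. Genes called by treatment in members were 10 in reaction 1 by itself, which has 1 residual degree of freedom, 1 by DESeq2, 28 with all genes of at least 1 count, and 0 to 1 with a mouse left out, the 1 being without untreated mouse 1 of reaction 2. Over all CD8-negative FOXP3-zero T cells they were 50 with all genes and 0 to 0 with a mouse left out. Against CXCL13-zero T cells the calls were 430 with thinning, 628 at a hashtag share of 80%, 712 in cells with a CD4 UMI, 115 in reaction 1, and 1247 to 1660 with a mouse left out. Against FOXP3-positive T cells they were 168 in reaction 1 and 1641 to 2160 with a mouse left out, and against CD8 T cells 829 at a hashtag share of 80%, 17 in reaction 1 and 984 to 1498 with a mouse left out. With all genes of at least 1 count the share of calls that were higher moved to 33.9% from 43.4%, to 38.8% from 48.2% and to 41.5% from 53.1% in these 3 comparisons. edgeR and DESeq2 shared 1400 calls against CXCL13-zero, 1815 against FOXP3-positive and 1275 against CD8 T cells, which is 88.1%, 91.1% and 90.0% of edgeR's and 94.1%, 97.6% and 95.7% of DESeq2's.

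The log2 fold changes that changed sign follow, and the cause was not tested. By treatment in members, GNG4 turned to 0.10 at 1 CXCL13 UMI, 0.14 at 3, 0.052 over 1000 genes, 0.13 without NK or gamma-delta UMIs, 0.97 in reaction 1, 0.13 at 5 cells per sum, and ran from -0.46 to 0.14 with a mouse left out. CXCL13 over all CD8-negative FOXP3-zero T cells ran from -0.28 without Maraviroc-treated mouse 3 of reaction 1 to 1.62 without untreated mouse 1 of reaction 2. Against CXCL13-zero T cells BCL6 turned to -0.017 at 1 CXCL13 UMI, -0.11 at a hashtag share of 80%, -0.40 with a CD4 UMI, -0.29 in reaction 1, -0.043 with all genes, and ran from -0.15 to 0.16 with a mouse left out. CTLA4 turned to -0.0088 at 3 CXCL13 UMIs, -0.35 with thinning, -0.17 at a hashtag share of 80% and -0.41 with a CD4 UMI. Without NK or gamma-delta UMIs the values were BCL6 -0.076, ICOS -0.55, CTLA4 -0.67, HAVCR2 0.54, CCL3 1.28, XCL1 2.14, PRF1 0.085 and MKI67 0.96. With a CD4 UMI they were ICOS -0.22, HAVCR2 0.28, CCL3 0.069, CCL4 1.18, XCL1 0.70, MKI67 0.22 and CD4 -0.29. IFNG against CD8 T cells turned to -0.82 at a hashtag share of 80% and -0.34 with a CD4 UMI. Of 1290 repeats for named genes against CXCL13-zero T cells, 1170 kept direction and side of the threshold, 92 lost the call and 26 changed sign. No paired analysis was possible because the labels number no mice and the numbers used here only tell mice apart, and the comparisons of cell kinds already hold the mouse as a block. Mice with under 10 members, 5 of 14, and the shallower reaction 1 limit what could be detected.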

Other observations

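The 28 FOXP3-positive T cells with at least 2 CXCL13 UMIs came from 11 mice and held 1175 CXCL13 UMIs, up to 362 in 1 cell, above the highest member at 275. Their median was 11.5 CXCL13 UMIs, and 21 of them (75%) had a CD4 UMI.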
